A study of Mus musculus with 4 samples.

Results

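The genes described here are 5 integrin subunits (Itga4, Itga5, Itga6, Itgb1 and Itgb2) and 3 receptors of the bone marrow niche (Cxcr4, Robo4 and Tek). They were picked by symbol, without a filter on their values, from the gene table of the count matrices, but with earlier results of these data known. All 8 were found among its 28692 genes. The study profiled hematopoietic stem and progenitor cells (HSPCs) from young and aged mice by droplet single-cell RNA sequencing, in which each captured RNA molecule is counted once through a unique molecular identifier (UMI), to ask how ageing alters early hematopoiesis. The cells were lineage-negative, Sca-1-positive, cKit-positive and Flt3-negative bone marrow cells, sorted by flow cytometry from untreated C57BL/6 male mice that carry the CD45.2 allele of Ptprc. Young mice were 2 to 3 months old and aged mice 17 to 18 months old. Each age had 2 pools, one captured and sequenced at the HalioDX facility (platform A) and the other at the TGML facility (platform B). Young A and aged B each held cells of 2 mice, and young B and aged A each held cells of 3 mice. Mice within a pool cannot be told apart, so the 4 pools are the replicates. Sample titles and source names gave the ages, since the free-text descriptions of young B and aged A name the other age.

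Of 15566 barcodes, 14915 were kept, between 2244 and 5189 a pool, with medians of 5674 to 6719 UMIs a cell. Any pair of libraries shared 10 to 29 barcodes. The genes behind the sort were present, with Kit seen in 39.6% to 59.8% of cells and Ly6a, which encodes Sca-1, in 55.0% to 80%. Flt3 RNA was still detected and was lower in the aged pools, at 48 and 15 CPM (UMIs scaled to 1000000 per pool) in young A and B against 10.5 and 2.40 in aged A and B.

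Integrins are heterodimers of an alpha and a beta chain that tie cells to matrix and to neighbouring cells. Itgb1 encodes the beta chain that pairs with the chains of Itga4 (to form VLA-4, the receptor for VCAM-1 and fibronectin), Itga5 (VLA-5, a fibronectin receptor) and Itga6 (VLA-6, a laminin receptor), while Itgb2 encodes the beta chain of the leukocyte integrins such as LFA-1. Cxcr4 is the receptor for CXCL12, which retains stem cells in marrow. Robo4 is a roundabout receptor shared by endothelium and stem cells, and Tek encodes Tie2, the angiopoietin receptor.

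On GRCm38 the integrin genes lie at chr2:79255426-79333123 (Itga4, plus strand), chr15:103344286-103366763 (Itga5, minus), chr2:71745616-71858416 (Itga6, plus), chr8:128685654-128733200 (Itgb1, plus) and chr10:77530252-77565708 (Itgb2, plus). The receptor genes lie at chr1:128588199-128592293 (Cxcr4, minus), chr9:37401897-37415115 (Robo4, plus) and chr4:94739289-94874976 (Tek, plus). All are protein-coding. Itga6 shares its strand with the annotated transcripts Gm13663 and Gm13662 and Itga5 with Mir6963, so reads in shared stretches are uncertain for these 2 genes. The genes Cxcr4 and Itgb1 differed between the platforms (below), and the 250 bases that precede their annotated starts are shown, from the RefSeq promoter table on GRCm38.p6, 5′ to 3′ on the strand of the gene (chr1:128592300-128592549, minus, for Cxcr4 and chr8:128685404-128685653, plus, for Itgb1). Capitals mark matches on either strand to a fixed set of motifs, given here with the share of 32851 windows of this length that hold each. The GC box was searched as GGGCGG and was held by 32.7% of the windows. The TATA box was searched as TATAAA, with a share of 12.4%. The core bound by ETS factors was searched as GGAAG and was common, at 64.1%. For the core bound by GATA factors the letters were AGATAA (9.99%), and for that of RUNX factors TGTGGT (14%).
Cxcr4: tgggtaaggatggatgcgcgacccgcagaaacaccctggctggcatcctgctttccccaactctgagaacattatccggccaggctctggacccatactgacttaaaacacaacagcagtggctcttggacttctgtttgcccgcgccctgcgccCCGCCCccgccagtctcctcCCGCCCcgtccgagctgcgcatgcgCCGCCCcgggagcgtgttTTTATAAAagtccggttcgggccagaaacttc
Itgb1: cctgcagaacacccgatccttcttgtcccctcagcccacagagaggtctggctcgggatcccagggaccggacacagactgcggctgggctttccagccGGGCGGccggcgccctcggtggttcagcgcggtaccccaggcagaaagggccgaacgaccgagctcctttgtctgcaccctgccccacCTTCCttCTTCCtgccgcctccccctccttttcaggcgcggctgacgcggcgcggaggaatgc
The Cxcr4 window held 3 GC boxes and an overlapping pair of TATA matches. The Itgb1 window held 1 GC box and 2 ETS cores, and no TATA match. These are letter matches and nothing was measured at them.

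The genes differed in how often they were seen. Itgb1 had a UMI in 34.3% of kept cells, Itga4 in 28.0% and Itga6 in 27.4%. The other 5 genes were sparse, between 5.93% (Tek) and 7.98% (Itgb2) of cells. Tek rested on 931 UMIs in all and Robo4 on 945. Levels below are CPM after TMM scaling of each pool's summed counts, and levels of different genes are not ranked against each other.

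With age, none of the 8 genes passed an adjusted p of 0.05 by edgeR's quasi-likelihood test over whole pools, and the one closest to it was Itga6, with 32.4 ± 1.07 CPM in young and 65.7 ± 7.77 CPM in aged pools (mean ± SD, n = 2). Over all 13555 genes tested, 1.6% were called higher and 0.428% lower in aged cells. At an unadjusted p under 0.05 there were 4 of the 8 (Itga4, Itga5, Itga6 and Tek), against 16% of all genes tested. DESeq2 called 1, Itga6, where it called 2.74% of genes higher and 1.27% lower. The young and aged pools did not overlap in 4 of the 8 genes, 2 of them higher (Itga5 and Itga6) and 2 lower in aged pools (Itga4 and Itgb2), against 17.1% of all genes higher and 14.1% lower (31.3% in either direction), so separation of the pools was common among all genes.

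Itga6 measured 33.1 CPM in young A, 31.6 in young B, 71.2 in aged A and 60.2 in aged B. Both aged pools were far above both young pools, and the young pools were close to each other. The fitted difference was 2.02-fold (log2 1.02, SE 0.16, edgeR adjusted p = 0.0559), with log2 differences of 1.08 on platform A and 0.91 on platform B. The call depended on the settings. The adjusted p was 0.00826 with DESeq2. With edgeR it was 0.0161 without the filter on low counts and 0.0403 with all barcodes kept. Without the replication-like and division-like clusters (described below) the edgeR value was 0.0479. By edgeR, Itga6 was not called with RLE factors, library totals only, cells thinned to 3000 UMIs, no immediate-early-like cells or no replicate block. The sum of 8 stem cell markers moved with it, at 513 and 522 CPM in young A and B and 1030 and 906 in aged A and B. The sum of 8 progenitor markers went from 1630 and 1520 CPM to 643 and 385. Marker levels are CPM without TMM scaling. Mllt3 gave the largest part of the stem cell rise (135 and 120 CPM in young A and B, 322 and 321 in aged A and B). Hlf and Mecom did not rise on platform B (203 to 196 and 52.4 to 51.8 CPM). The paper reports Procr, Slamf1 and Vwf as higher in aged cells, so the sum does not count stem cells. The part of the cell mix in the whole-pool difference is addressed only by the narrower populations below.

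Itga5 measured 10.9 CPM in young A, 5.23 in young B, 17.8 in aged A and 11.3 in aged B. Aged B lay only just above young A, although within each platform the aged pool was clearly the higher. The fold difference was 1.87 (log2 0.90, SE 0.20, edgeR adjusted p = 0.117), and without the low-count filter the adjusted p was 0.0498. Itga4 ran the other way, at 54.8 CPM in young A, 69.1 in young B, 39.4 in aged A and 46.5 in aged B, which gave a log2 difference of -0.52 (SE 0.16, edgeR adjusted p = 0.196). Both aged pools were below both young pools. For the common partner Itgb1, the pools of platform A held 74.8 CPM (young) and 82.0 CPM (aged) and those of platform B 35.0 and 48.1. These values group by platform and not by age, and the age difference was log2 0.29 (SE 0.17, edgeR adjusted p = 0.515).

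The leukocyte chain Itgb2 measured 16.8 CPM in young A, 12.2 in young B, 9.15 in aged A and 10.8 in aged B. The aged pools were lower, but aged B was close to young B, and the log2 difference of -0.53 (SE 0.24) had an edgeR adjusted p of 0.379. The 8 mast cell markers, which name a cluster rich in Itgb2 (below), summed to 2080 and 2200 CPM in young A and B. Their sum was lower in aged A and B, at 971 and 641 CPM. Most of it came from Prss34, a basophil protease (1080 and 1130 CPM in young A and B, 457 and 331 in aged A and B), and Mcpt8 (771 and 890, then 353 and 240). Cma1 was higher in both aged pools, and Fcer1a overlapped between the ages. The list does not tell mast cells from basophils. The part of these cells in the Itgb2 difference was not tested. Of the niche receptors, Tek measured 8.21 CPM in young A, 5.23 in young B, 13.8 in aged A and 7.02 in aged B. The aged pool was the higher on each platform, with overlap between the ages, and the log2 difference was 0.60 (SE 0.20, edgeR adjusted p = 0.234). Robo4 held 10.3 and 5.09 CPM in young A and B and 11.2 and 6.95 CPM in aged A and B (log2 0.28, SE 0.19, edgeR adjusted p = 0.597). Cxcr4 held 21.5 and 3.90 CPM in young A and B and 18.0 and 1.92 CPM in aged A and B (log2 -0.58, SE 0.25, edgeR adjusted p = 0.364). With both of these receptors the ages overlapped and platform A was the higher at each age. The sign of an age difference turned when 1 pool was left out, and the block with it, for Cxcr4 (log2 1.29 without young A and 0.49 without aged B), Itgb1 (-0.21 without young B and -0.19 without aged A) and Robo4 (-0.19 and -0.15).

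**Figure D1:**
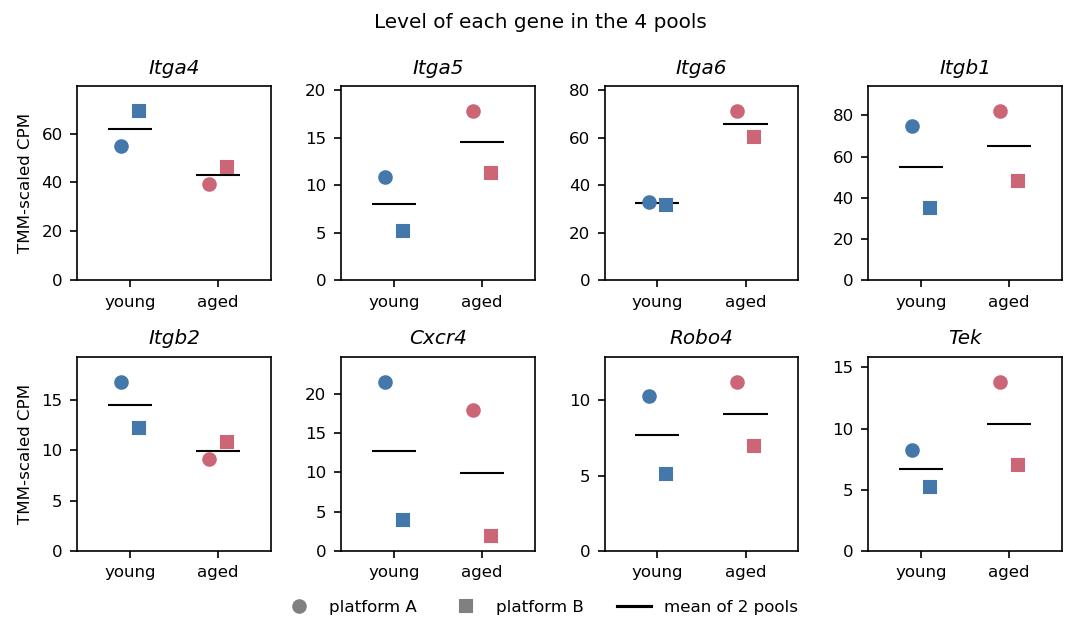
TMM-scaled CPM (vertical axes from 0) of each gene in the 4 pools, with circles for platform A, squares for platform B and a line at the mean of the 2 pools of an age. Itga6 sits at 31.6 to 33.1 in young and 60.2 to 71.2 in aged pools, whereas Itgb1 and Cxcr4 separate by platform at both ages.

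The share of cells with a UMI was compared after thinning each cell to 3000 UMIs, which left 14685 cells. Itga6 was seen in 10.2% of young A cells (95% exact binomial interval 9.38 to 11.1), 9.80% of young B (8.59 to 11.1), 20.1% of aged A (18.7 to 21.5) and 15.3% of aged B (14.2 to 16.4). Both aged pools again exceeded both young pools, by 7.69 percentage points on average. Itga4 had the opposite order, at 15.6% and 17.5% of young A and B cells and 12.6% and 11.9% of aged A and B cells, a mean difference of -4.28 points. Itgb2 was the only other gene whose thinned shares did not overlap between the ages (-1.04 points). The set depended on the thinning, since in unthinned cells the shares of Itgb2 overlapped (-2.24 points) and those of Itga5 did not (4.1 points), whereas Itga4 and Itga6 were apart in both. Of all 13555 genes, 29.8% had shares that did not overlap in thinned cells (16.8% higher and 13.1% lower in aged pools) and 30.1% in unthinned cells (18.2% and 11.9%). An exact permutation of 2 pools against 2 cannot give a two-sided p below 0.33, which is the value for these 3 genes. Intervals cover counting error only. Cells with no UMI of any of the 8 genes made up 48.6% and 62.5% of thinned young A and B cells and 42.1% and 59.4% of aged A and B cells.

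The age differences were then taken inside narrower populations, to see whether they stayed when the mix of cells was held closer. Procr encodes EPCR, a surface marker of long-term stem cells, and a Procr UMI was found in 27.1% and 30.9% of thinned young A and B cells and in 42.1% and 43.0% of aged A and B cells. Procr itself was higher in aged pools, at 96.4 and 117 CPM in young A and B and 187 and 201 in aged A and B (without TMM scaling). A cell without a Procr UMI can still hold its RNA, so the split holds the mix only in part. Among cells with a Procr UMI, Itga6 measured 40.6 and 36.8 CPM in young A and B and 74.0 and 66.3 CPM in aged A and B. The aged pools were again both the higher, with a log2 difference of 0.86 (SE 0.18, edgeR adjusted p = 0.107). Among cells without one, Itga6 measured 31.9 and 38.1 CPM in young A and B and 70.0 and 57.4 CPM in aged A and B. The separation was the same there, and the log2 difference was 0.87 (SE 0.21, edgeR adjusted p = 0.0897). The 2 differences were themselves compared, and for Itga6 they were -0.06 apart on the log2 scale (SE 0.15, edgeR adjusted p = 0.979).

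edgeR called 0 of the 8 genes in cells with a Procr UMI, where 0.885% of 11073 genes were called higher and 0.343% lower in aged cells, and 0 in cells without one, where 1.97% and 0.592% of 11649 were. DESeq2 called 0 in either, where it called 0.7% of genes higher and 0.249% lower with a Procr UMI and 1.12% and 0.283% without. At an unadjusted p under 0.05 there were 2 of the 8 with a Procr UMI, against 10.7% of all genes, and 4 of the 8 without, against 12%. In the comparison of these age effects edgeR called 0 of the 8 (0.348% of 11785 genes higher and 0.246% lower), with 0 at an unadjusted p under 0.05 (7.31% of all genes). The widest gap was that of Cxcr4, with a log2 age difference 0.48 lower in cells with a Procr UMI (SE 0.29, edgeR adjusted p = 0.774). DESeq2 was not run on that comparison. In cells of the clusters without a lineage name (described below), 0 of the 8 were called by edgeR, which called 1.65% of 13356 genes higher and 0.494% lower there. At an unadjusted p under 0.05 there were 4 of the 8, against 16.5% of all genes. DESeq2 called 1, Itga6 (adjusted p = 0.0139), where it called 2.65% of genes higher and 1.26% lower. Itga6 showed log2 1 (SE 0.17, edgeR adjusted p = 0.0645), Itga5 0.83 (SE 0.19) and Itga4 -0.57 (SE 0.16).

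**Figure D2:**
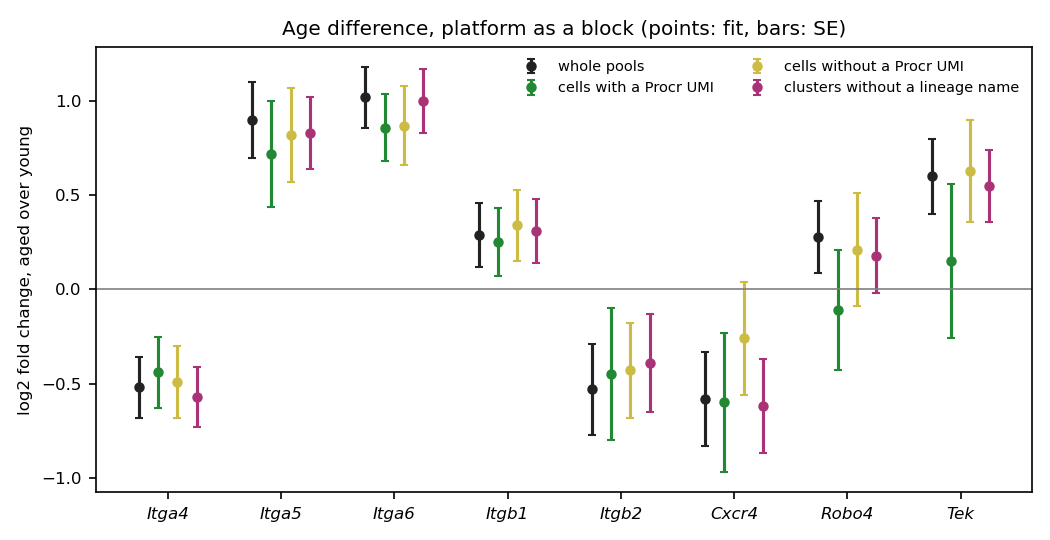
Log2 fold change of aged over young cells for each gene (points) with its standard error (bars), from edgeR fits with platform as a block, in whole pools and in 3 narrower populations. The Itga6 points lie between 0.86 and 1.02 in all 4 populations, and the Itga4 points between -0.57 and -0.44.

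The cells fell into 14 clusters after integration of the pools, with the 8 genes kept out of the clustered genes. Clusters were named from marker lists, such as Car1 and Klf1 (erythroid-like), Pf4 (megakaryocyte-like), Prss34, Mcpt8 and Fcer1a (mast cell-like) and Elane and Mpo (neutrophil-like). A stem cell-like cluster of 3952 cells rested on only 3 list genes, and clusters 1, 2 and 4 met no list. At a finer resolution of 0.8 no cluster met the stem cell list, so that name depended on the resolution. The lineage-negative gate should have removed mature cells, and the lineage-named clusters held few cells, from 37 (B cell-like, whose leading genes mixed immunoglobulin with hemoglobin genes) to 468 (neutrophil-like). Levels in clusters are CPM of summed UMIs without TMM scaling, given as description with no test.

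Itga4 was highest in erythroid-like cells, at 113 and 130 CPM in young A and B and 147 and 142 CPM in aged A and B, and 58.5% to 65.3% of these cells had an Itga4 UMI. Each of the 4 values was above the level of its whole pool. T cell-like cells followed at 125 ± 21.3 CPM (mean ± SD over 4 pools) and could not be ordered against erythroid-like cells (133 ± 15). The remaining clusters lay between 40.5 and 63.7 CPM, with the stem cell-like cluster at 44.5 ± 9.61.

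Itga6 had the reverse arrangement. It was highest in immediate-early-like (66.3 ± 19.4 CPM, with 4 UMIs in 11 cells of young B), stem cell-like (61.6 ± 25.4), megakaryocyte-like (56.2 ± 20.7) and cluster 4 cells (56.1 ± 26.8). These did not differ beyond their spread from each other or from cluster 2 (52.0 ± 25.5), cluster 1 (50.8 ± 22.1) and interferon-like cells (49.3 ± 17.3). Itga6 was low in neutrophil-like (24.5 ± 8.53), erythroid-like (19.3 ± 6.90) and mast cell-like cells (14.7 ± 2.01). Age ran through these levels. In the stem cell-like cluster Itga6 measured 47.0 and 40.2 CPM in young A and B and 97.1 and 62.0 CPM in aged A and B. Of the 11 clusters with at least 20 cells in every pool, 9 had both aged pools above both young pools. The exceptions were erythroid-like cells (24.4 and 13.7 CPM in young A and B, 26.1 and 13.1 in aged A and B) and mast cell-like cells. Both rested on few Itga6 UMIs in the smaller pools, but so did some of the 9. Interferon-like cells held 12 and 6 UMIs in young A and B and 12 and 13 in aged A and B. In neutrophil-like cells aged B (21.4 CPM, 12 UMIs) lay only just above young B (20.3 CPM). Itga5 was seen in far fewer molecules. In 11 of 11 clusters it was higher in the aged than in the young pool of its platform, on both platforms. Both aged pools were above both young pools in only 3. Young B held 0 Itga5 UMIs in erythroid-like, interferon-like and mast cell-like cells, against 4, 1 and 1 in aged B. The clusters share the same pools and are not independent, and these counts of clusters were not taken over all genes.

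The mean of Itgb2 was highest in mast cell-like cells (88.7 ± 10 CPM), at 96.3 and 86.3 CPM in young A and B and 96.8 and 75.6 CPM in aged A and B. These 4 values varied little and were 5.49 to 9.27 times those of the whole pools. T cell-like cells held 83.3 ± 62.6 CPM, from 33.2 to 175 over the pools and with only 9 cells in aged B. They could not be ordered against mast cell-like cells. Megakaryocyte-like cells held 27.0 ± 7.79 CPM, while the stem cell-like cluster held 8.59 ± 0.787. Itgb1 ran from 79.9 ± 46.1 CPM in megakaryocyte-like to 37.3 ± 32.2 in mast cell-like cells among clusters with 20 cells in every pool. Its spread between the pools of a cluster, which takes in the platform difference (below), was as wide as the gaps between most clusters. Within pools some clusters kept their place. Division-like, replication-like and cluster 1 cells were above the whole pool in 4 of 4 pools, at 1.02 to 1.24 times its level. Erythroid-like cells were below it in each pool (0.501 to 0.779 times).

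Robo4 was highest in the immediate-early-like cluster in all 4 pools (21.0 ± 9.07 CPM), on 2 to 30 UMIs a pool, with only 11 cells of young B. Next came the stem cell-like cluster (12.3 ± 4.92) and cluster 2 (10.2 ± 4.32), each above its whole pool in 4 of 4 pools. Robo4 was lowest in the lineage-named clusters and reached 1.19 ± 1.4 CPM in erythroid-like cells. Tek shared part of this arrangement, with 11.6 ± 5.47 CPM in cluster 2 and 11.2 ± 4.55 in the stem cell-like cluster, each above its whole pool in 4 of 4 pools, and 0.27 ± 0.541 CPM in mast cell-like cells. Its level was as high in interferon-like (11.6 ± 10.2), immediate-early-like (11.6 ± 5.09), division-like (11.4 ± 8.27) and megakaryocyte-like cells (11.1 ± 11.6), on 12 to 87 UMIs each, and these clusters could not be ordered. Cxcr4 was highest in mast cell-like cells of platform A (81.1 CPM in young A and 101 in aged A), whereas those of platform B held 1 UMI in each pool. Division-like cells were above the whole pool for Cxcr4 in 4 of 4 pools, at 32.5 and 7.48 CPM in young A and B and 45.1 and 4.65 CPM in aged A and B, and the stem cell-like cluster in 0 of 4.

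**Figure D3:**
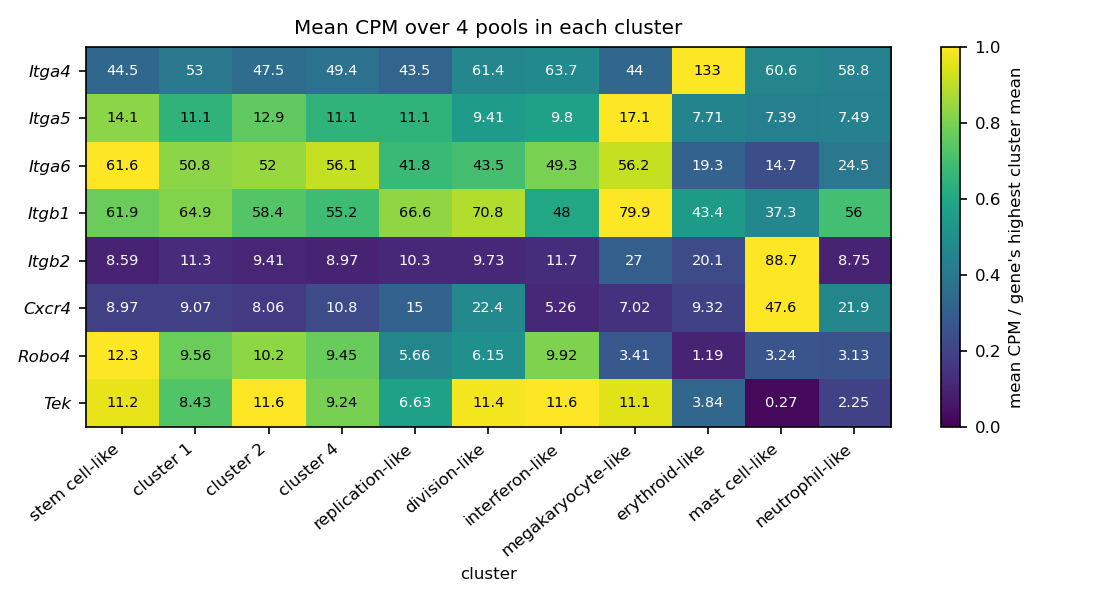
Mean CPM over 4 pools (printed in each cell) of each gene in the 11 clusters with at least 20 cells in every pool, coloured by the ratio to that gene's highest cluster. Itga4 peaks at 133 in erythroid-like and Itgb2 at 88.7 in mast cell-like cells, while Itga6, Robo4 and Tek are lowest in erythroid-like, mast cell-like or neutrophil-like cells.

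The genes whose log levels followed each of the 8 most closely were sought over 44 sums (11 clusters in 4 pools), which share libraries and are not independent, so Pearson's r is a description. Among the genes closest to Itga6 were Gng11 (r = 0.919) and Mmrn1 (0.911). Itga4 was closest to S100a10 (0.832), Car1, an erythroid carbonic anhydrase (0.822), and Gadd45a (0.801). Itgb2 was closest to Fcer1a, the mast cell and basophil IgE receptor chain (0.877), Arpc5 (0.872) and the basophil protease Prss34 (0.864). Robo4 was closest to Nab2 (0.843), a corepressor of early growth response factors, Nkx2-3 and Camk2d (0.826 each). The likeness was weaker for Tek (Mast4, 0.794), Itgb1 (Vps13a, 0.783), Cxcr4 (Gm20342, 0.72) and Itga5 (Tmem40, 0.706).

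Each pool was next divided by a Cd48 UMI. CD48 is a surface protein of multipotent progenitors that long-term stem cells lack. A Cd48 UMI was found in 13.5% and 13.0% of thinned young A and B cells and in 5.58% and 2.34% of aged A and B cells, so the aged classes held only 176 and 97 cells. Against cells without a Cd48 UMI, cells with one had higher Itgb2 and Cxcr4 and lower Itga6 and Tek by edgeR's quasi-likelihood test with pool as a block. Of 11505 genes tested, 9.24% were called higher and 9.11% lower.

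Itgb2 measured 14, 10.9, 8.38 and 10.7 CPM in cells without a Cd48 UMI (young A, young B, aged A and aged B) and 32.6, 20.3, 26.0 and 32.6 CPM in cells with one. Every pool was higher with Cd48 and the classes did not overlap, for a 2.44-fold difference (log2 1.29, SE 0.21, edgeR adjusted p = 0.00013). Cxcr4 measured 17.1, 4.80, 16.0 and 2.02 CPM without and 29.4, 6.33, 45.0 and 10.9 CPM with a Cd48 UMI. It was higher in 4 of 4 pools, on only 5 and 3 UMIs in the Cd48 cells of young B and aged B (log2 1.05, SE 0.24, edgeR adjusted p = 0.00375).

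Itga6 measured 35.0, 39.5, 73.0 and 62.5 CPM without and 27.6, 27.8, 34.6 and 29.0 CPM with a Cd48 UMI. It was lower in 4 of 4 pools (log2 -0.64, SE 0.16, edgeR adjusted p = 0.00529). That value averages over a gap that was wider in the aged than in the young pools, which was not tested. The 4 values with Cd48 lay close together, but on 60, 22, 20 and 8 UMIs, too few to judge an age difference in these cells. Tek measured 9.44, 7.87, 15 and 7.62 CPM without and 4.13, 2.53, 8.65 and 0 CPM with a Cd48 UMI (log2 -1.24, SE 0.35, edgeR adjusted p = 0.0168). It was lower in 4 of 4 pools, but on 9, 2, 5 and 0 UMIs, and 0 of 97 cells in aged B allows a share of up to 3.09%. Robo4 (log2 -0.61, SE 0.35, edgeR adjusted p = 0.26) and Itga4 (0.37, SE 0.16, edgeR adjusted p = 0.131) were not called. Leaving out 1 pool ended 3 of these calls, for Cxcr4 (edgeR adjusted p = 0.0838 without aged A), Itga6 (0.0642 without aged A) and Tek (0.112 without young A), and DESeq2 did not call Tek (adjusted p = 0.0991). Itga4 was called higher without young A (edgeR adjusted p = 0.0162), without young B (0.0174) or without the replication-like and division-like clusters (0.0436).

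**Figure D4:**
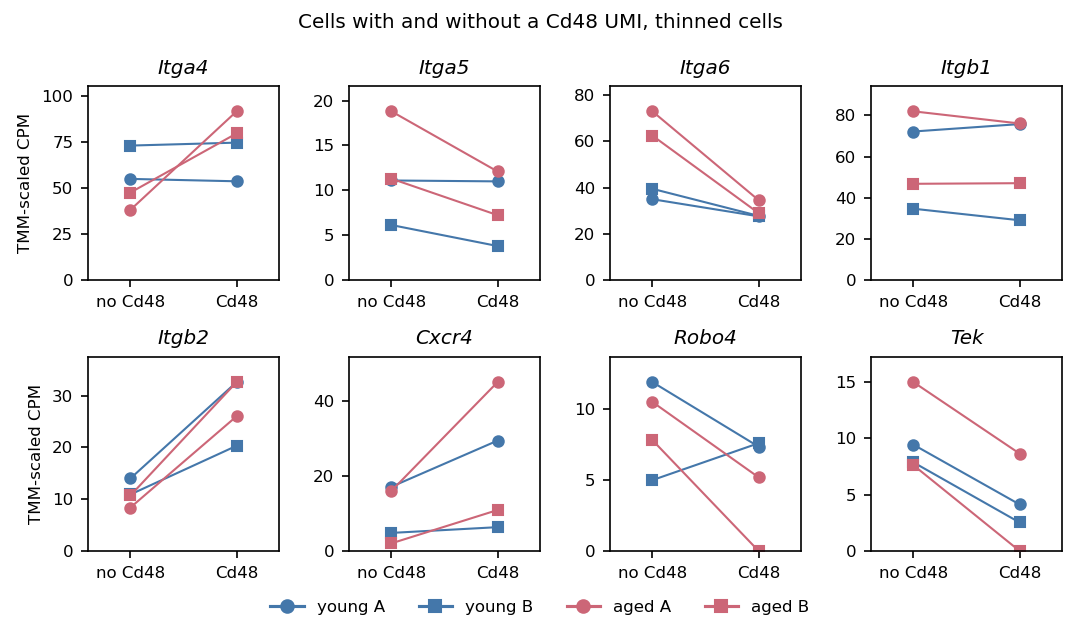
TMM-scaled CPM of each gene in thinned cells without and with a Cd48 UMI, 1 line per pool, with blue for young, red for aged, circles for platform A and squares for platform B. The lines of Itgb2 and Cxcr4 rise and those of Itga6 and Tek descend in all 4 pools, with log2 differences of 1.29, 1.05, -0.64 and -1.24.

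The Cd48 differences moved with the lineage-named clusters. Without the cells of those clusters the log2 difference of Itgb2 was 0.11 (SE 0.36, edgeR adjusted p = 0.921), and that of Itga6 was -0.33 (SE 0.18, edgeR adjusted p = 0.313). Cxcr4 (0.67, SE 0.30, edgeR adjusted p = 0.164) and Tek (-0.84, SE 0.44, edgeR adjusted p = 0.26) kept more of theirs but were not called. Division by a Procr UMI gave 2 calls, both lower in cells with a Procr UMI and in 4 of 4 pools, against 8.76% of 11785 genes called higher and 10.5% called lower. Itga4 measured 57.5, 80.2, 46.1 and 48.4 CPM without and 49.4, 59.7, 34.1 and 47.0 CPM with a Procr UMI in young A, young B, aged A and aged B (log2 -0.26, SE 0.07, edgeR adjusted p = 0.00976). Itgb2 measured 17.7, 13.9, 10.9 and 12.2 CPM without and 13.5, 8.53, 7.13 and 9.44 CPM with one (log2 -0.47, SE 0.14, edgeR adjusted p = 0.0116). Neither was called without the lineage-named clusters (Itga4 log2 -0.12, edgeR adjusted p = 0.38, and Itgb2 -0.05, edgeR adjusted p = 0.896) or by DESeq2 (adjusted p = 0.163 and 0.236). For Itga4 the call was also lost without young B (edgeR adjusted p = 0.0735) or aged A (0.0721). Itga6 was not called (log2 0.18, SE 0.07, edgeR adjusted p = 0.0815).

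The platforms were compared after the pool values had been seen. Cxcr4 was higher on platform A by 7.16-fold (log2 2.84, SE 0.27, edgeR adjusted p = 0.0116), with A to B ratios of 5.5 in young and 9.38 in aged pools, and Itgb1 by 1.91-fold (log2 0.93, SE 0.17, edgeR adjusted p = 0.0425), with ratios of 2.14 and 1.71. Of 13555 genes, 7.44% were called higher and 0.162% lower on platform A. Robo4 (log2 0.85, edgeR adjusted p = 0.0689), Itga5 (0.85, 0.0741) and Tek (0.82, 0.0738) were each 1.77 to 1.8 times as high on platform A without passing the threshold. Itga4 (-0.29), Itga6 (0.16) and Itgb2 (0.12) showed log2 differences under 0.3 in size. By the study's methods, read depth was greater for young B and aged A than for young A and aged B, so it was crossed with both facility and age. Median UMIs a cell were 6075 and 5674 in young A and aged A against 6284 and 6719 in young B and aged B. In cells thinned to 3000 UMIs Cxcr4 (log2 2.44, SE 0.32, edgeR adjusted p = 0.0232) and Itgb1 (0.97, SE 0.17, edgeR adjusted p = 0.0433) were still higher on platform A. Facility and the mice used cannot be told apart here.

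The platform difference of Cxcr4 ran through the cell types. In 11 of 11 clusters Cxcr4 was higher on platform A at both ages, as were Itgb1 and Itga5. Some clusters held few UMIs of these genes. Interferon-like cells held 1 Cxcr4 UMI in aged A and 0 in aged B, and 0 Itga5 UMIs in young B. The count was 9 for Itga6 and Tek, 8 for Robo4, 4 for Itgb2 and 2 for Itga4, and was not taken over all genes. In the stem cell-like cluster Cxcr4 measured 15.4 CPM in young A and 17.1 in aged A, against 2.60 in young B and 0.814 in aged B. The summed level of 8 immediate-early genes, which respond fast to outside stimuli, was also higher on platform A, at 977 and 3490 CPM in young A and aged A against 335 and 766 in young B and aged B. Without the immediate-early-like cells the difference of Cxcr4 was log2 2.84 (edgeR adjusted p = 0.0172), and that of Itgb1 was 0.93 with an adjusted p of 0.051. These cells held only 24 of 1362 Cxcr4 UMIs and 171 of 6775 Itgb1 UMIs, so leaving them out could hardly move either value. The part of immediate-early expression in the platform differences was not tested. Without an age term in the fit neither was called (edgeR adjusted p = 0.0536 for Cxcr4 and 0.12 for Itgb1).

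**Figure D5:**
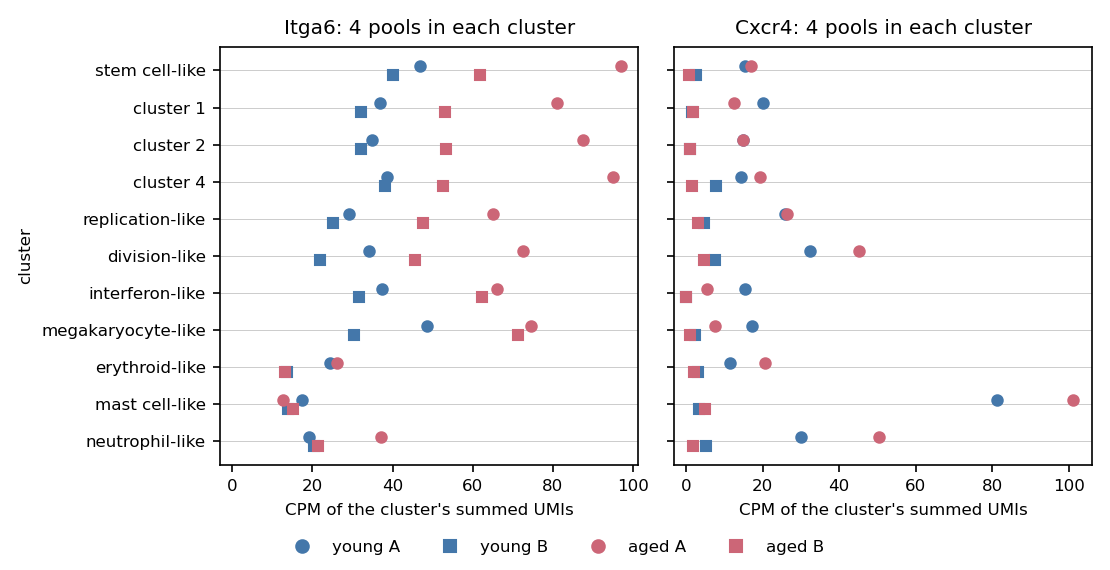
CPM of Itga6 (left) and Cxcr4 (right) in each cluster (rows) and pool, with blue for young, red for aged, circles for platform A and squares for platform B. In 9 of 11 clusters both aged pools are above both young pools for Itga6, and in 11 of 11 clusters the platform A pool of each age is above the platform B pool for Cxcr4. Neither count was taken over all genes.

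Single cells were checked for partners. Itgb1 was seen about as often in cells with an alpha chain as in cells without. In thinned cells of young A, Itgb1 was seen in 20.6% of cells with an Itga4 UMI (95% exact binomial interval 17.9 to 23.6) and in 21.0% of cells without, and the ratio of these shares ran from 0.981 to 1.2 over the 4 pools. For Itga6 and Itgb1 it ran from 0.932 to 1.34. Of 10 pairs of genes examined, Itga6 in cells with and without Tek was the only one with a ratio above 1 in 4 of 4 pools. That ratio was 1.1 in young A, 2.19 in young B, 1.04 in aged A and 1.35 in aged B, on only 9 to 32 cells with both, so it was close to 1 in both pools of platform A. At this depth a missing UMI does not mean that a cell lacks the RNA.

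Robo4 and Tek are also endothelial genes, so the cells that held them were checked for endothelial markers. Of kept cells with a Robo4 or Tek UMI, 2 of 655 in young A, 0 of 151 in young B, 5 of 517 in aged A and 7 of 387 in aged B carried 3 or more of 10 endothelial markers. Among the other cells there were 2 of 4534 in young A, 0 of 2093 in young B, 21 of 2811 in aged A and 23 of 3767 in aged B. Cells with 3 or more markers were thus few in both classes and took a larger share of the cells with Robo4 or Tek in 3 of 4 pools, a difference that was not tested. These cells were not thinned, and deeper cells are more likely to show any of these genes, so depth was not held equal between the classes. The list summed to 51.2 and 30.9 CPM in young A and B and 166 and 181 CPM in aged A and B, most of it from Tie1 and Cldn5 (3.92 and 3.6 against 99.0 and 142 CPM), a leading gene of the stem cell-like cluster. How far the cells with these genes are endothelial was not tested. Kdr, the VEGF receptor, was also detected and higher in aged pools, at 3.21 and 1.34 CPM in young A and B and 6.78 and 5.11 CPM in aged A and B. The other 7 markers ran from 0 to 3.98 CPM in a pool, with the defining markers Cdh5 at 0 to 0.357 CPM and Sox17 at 0 in all pools. The pan-hematopoietic gene Ptprc was seen in 17.3% to 26.3% of thinned cells with a Robo4 or Tek UMI and in 16.2% to 25.4% of the others. The share of thinned cells with a Cd48 UMI, not tested, was lower among cells with a Robo4 or Tek UMI in each pool, at 7.52% against 13.9% of the others in young A, 10.7% against 13.1% in young B and 3.19% against 5.79% in aged A. In aged B it was seen in 0 of 163 such cells, which allows a share of up to 1.84%, against 2.43% of the others. The share with a Procr UMI did not run one way. It was higher among cells with a Robo4 or Tek UMI in young A (32.9% against 26.7%), young B (44% against 30.4%) and aged A (45.8% against 41.8%) and lower in aged B (39.3% against 43.2%).

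Among 139 further genes of integrin, adhesion, chemokine, Robo, Tie and niche receptor function, 105 entries could be tested for age. Itgam was counted more than once among them, under different gene identifiers. Of the 105 entries, edgeR called 6 higher and 1 lower (6.67%, against the 1.6% and 0.428% given above for all genes). The lists were drawn up with earlier results of these data known. They hold Selp, Jam2 and Alcam, which the paper reports as higher with age, so the larger share is no test of the lists. Integrin subunits gave Itgb3, which pairs with Itga2b (log2 2.48, edgeR adjusted p = 0.014), and, lower in aged cells, Itgb5 (-2.98, 0.0297). Adhesion receptors gave Selp (4.24, 0.0112), Jam2 (2.70, 0.012) and Ncam1 (2.90, 0.028), and the chemokine lists gave Gpr183, an oxysterol receptor (3.70, 0.0133), and Cd74, a receptor for MIF (1.68, 0.0309). The prostaglandin receptor gene Ptger4 came next (1.33, 0.0523). The called genes came from 4 of the 9 lists. The median age difference was log2 0.06 over the 105 entries and 0.01 over all genes.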

How the data were processed

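Raw UMI counts per gene and cell barcode for 4 pools of sorted mouse HSPCs were analysed as deposited. The authors made these counts with Cell Ranger 2.2.0 from 10x libraries, on the mouse build mm10 (GRCm38.p4 in the submitters' processing notes). Which gene annotation was used is not stated there. Barcodes within 2 SD of their pool's mean log UMI count were kept. Kept cells were summed per pool (16399999 to 36446168 UMIs) and tested with edgeR 4.0.16 (quasi-likelihood test, TMM, filterByExpr, Benjamini-Hochberg over all genes tested at 0.05), with platform as a block. Deviations of the pools of one letter from their age means had a correlation of 0.576 over 13555 genes, and the letter marks a facility. Fits of 1 pool divided into classes used thinned cells (3000 UMIs, 230 shallower cells left out) with pool as a block. DESeq2 1.42.0 was the alternative. SE is the log2 fold change over the root of F, and within-platform differences are log2(CPM + 1). Pools are the replicates. With platform as a block, the p-values of age rest on how far the age difference varied between platforms, with dispersion shared over genes. Those of platform rest in the same way on how far the platform difference varied between ages. With pool as a block, p-values of the Procr and Cd48 fits rest on how far the class difference varied between pools. With 1 pool left out, the lone pool is assumed to vary like the others.

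Cells were integrated and clustered with Seurat 5.3.0 (2000 variable genes, 15 components, 20 neighbours, resolution 0.5), with cell cycle scores from scran 1.30.0 regressed out. A cluster took the name of a list with at least 3 markers up by log2 1 in 10% of its cells. At least 1 gene of the list also had to be among the cluster's top 10 genes by fold. No doublet caller was run. Likeness used genes with a mean over 20 CPM seen in 5% of cells, 3 per gene, of which 1 is not reported here. Further genes are named where called for age, or by the 8 smallest p values if fewer were. The genes, lists and tests were chosen with earlier results of these data known. The scripts' tests were tried on simulated data with known changes. Coordinates are from GENCODE on GRCm38 and promoter windows from RefSeq, where 6 of the 8 genes matched (not Itga6 or Itgb2), trimmed to bases outside annotated exons.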

Additional observations from a re-analysis of the deposited data

Results flagged for a closer look

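For 4 genes the aged and young pools differed in opposite directions on the 2 platforms within a narrower population, 1 pool against 1 on each platform, and these differences between platforms were not tested. Values are log2 differences of aged minus young, for platform A and then platform B. In cells with a Procr UMI they were 0.75 and -0.69 for Tek, -0.83 and 0.13 for Itgb2, and -0.32 and 0.24 for Robo4. In cells without a Procr UMI they were 0.07 and -0.72 for Cxcr4 and -0.08 and 0.56 for Robo4. In the clusters without a lineage name they were -0.73 and 0.04 for Itgb2. Over whole pools the sign was the same on both platforms for each of the 8 genes.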

How the results depend on the processing

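The age difference over whole pools was positive for Itga5, Itga6, Itgb1, Robo4 and Tek and negative for Itga4, Itgb2 and Cxcr4 under all alternatives that kept the 4 pools, and each call that moved in that comparison is given with its gene above. Counts of called genes moved more, and the cause was not tested. With age over whole pools, 275 genes were called, against 543 with DESeq2, 774 without the low-count filter, 129 in thinned cells, 74 with library totals only, and 0 to 287 with 1 pool left out. In cells with a Procr UMI 136 were called (398 not thinned, 12 to 168 with 1 pool left out), in cells without one 299 (163 with DESeq2, 26 to 172 with 1 pool left out), in the clusters without a lineage name 287 (522 with DESeq2, 0 to 305 with 1 pool left out) and for the difference of the age effects 70 (164 not thinned, 21 to 67 with 1 pool left out). The Cd48 split called 2111 genes (1354 with DESeq2, 4880 not thinned, 990 without lineage clusters, 1290 to 1906 with 1 pool left out). The Procr split called 2271 (942 with DESeq2, 4166 not thinned, 1341 without lineage clusters, 1339 without replication-like and division-like cells, 1578 to 2088 with 1 pool left out). In unthinned cells edgeR also called Cxcr4, Itga6, Robo4 and Tek in the Procr split, Itga4 and Robo4 in the Cd48 split, and Itga6 with age in cells with a Procr UMI. The platform comparison, added after seeing the data with its alternatives, called 1030, and 287 without an age term.

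Without the replicate block, edgeR called 0 genes in each of the 4 age comparisons, with 1103, 565, 608 and 1101 at an unadjusted p under 0.05 over whole pools, in cells with and without a Procr UMI and in the clusters without a lineage name, and DESeq2 with the block called 543, 103, 163 and 522. The blocked fit was kept because the letter marks the facility.

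Signs turned for 8 values that were called under neither setting. Unthinned cells gave 0.17 for the age difference of Robo4 in cells with a Procr UMI, 0.01 for Itgb1 in the Procr split (0 with DESeq2), and -0.14, 0.05, -0.03 and 0.05 for the difference of the age effects of Itga4, Itga6, Itgb1 and Tek. Without lineage clusters Itga4 gave -0.06 in the Cd48 split. With 1 pool left out, log2 ranges that crossed 0 were -2.73 to 1.29 (whole pools), -3.48 to 1.25 (Procr UMI), -2.01 to 0.92 (no Procr UMI) and -2.71 to 1.17 (no lineage name) for Cxcr4, -0.21 to 0.85, -0.29 to 0.75, -0.20 to 0.95 and -0.17 to 0.85 for Itgb1, -0.19 to 0.79, -0.64 to 0.59, -0.25 to 0.76 and -0.30 to 0.73 for Robo4, and -0.63 to 0.67 for Tek with a Procr UMI. For the difference of the age effects they were -1.54 to 0.29 (Cxcr4), -0.14 to 0.20 (Itga4), -0.46 to 0.15 (Itga5), -0.19 to 0.16 (Itga6), -0.24 to 0.05 (Itgb1) and -0.15 to 0.16 (Itgb2), and in the splits -0.11 to 0 (Cd48) and -0.03 to 0.01 (Procr) for Itgb1. Among clusters with at least 20 cells in every pool, the highest mean of each gene stayed within its spread at resolution 0.8. No cluster met the stem cell list there. Only the value was compared, and the cluster that held it could differ. For Robo4 it was the stem cell-like cluster (12.3 CPM) at resolution 0.5. At 0.8 it was a cluster led by Mgst1 and Flt3 (12.9 ± 6.1 CPM), with 12.3 CPM in the clusters led by Cldn5. Depth limits Tek, Robo4, Cxcr4 on platform B and the Cd48 classes of the aged pools.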
